A study of Mus musculus with 6 samples.

Results

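Growth hormone reaches the liver through a single receptor chain and a single kinase, and this account follows 10 genes of that route in mice given sulfasalazine. They are Ghr, Jak2, Stat5a, Stat5b, Socs2, Cish, Igf1, Igfals, Bcl6 and Cux2. For each gene the row of the deposited table that bears its name and an Ensembl transcript was taken, which gave 10 loci of 42612 in the table and of 24822 with an Ensembl transcript. None of the 10 loci pools transcripts of another gene. The libraries came from whole liver of male ICR mice, an outbred stock, aged 8 weeks per the labels. The treated group held 3 mice given 1000 mg/kg sulfasalazine by gavage for 4 weeks, and the control group held 3 mice given the 0.1% DMSO vehicle. Sulfasalazine is an anti-inflammatory drug, and the series' title asks how it injures the liver. Levels are in FPKM, which scales the fragments of a locus by its length and by the size of the library.

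Growth hormone binds its receptor on hepatocytes and activates the kinase JAK2, which phosphorylates the transcription factors STAT5A and STAT5B. STAT5 then switches on Igf1, the circulating growth factor, Igfals, the subunit that holds IGF-1 in a long-lived serum complex, and Socs2 and Cish, inhibitors that feed back on the receptor. In male rodents growth hormone arrives in pulses and keeps up male-type liver expression, largely through STAT5B. BCL6 and CUX2 are repressors further down this route, with BCL6 more abundant in male mouse liver and CUX2 in female mouse liver.

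STAT5 dimers bind a palindrome written TTCNNNGAA, which reads the same on both strands. RefSeq promoter windows on GRCm38.p6, each of 300 bases from 250 before to 50 after a start, were matched for 9 of the 10 genes, all but Socs2, and gave 16 windows. The motif stood in 5 of these windows, at 3 genes, against 8.30% of all 32851 windows in the table. The stretches that hold it are shown here because these genes are the known STAT5 targets or partners whose levels are given next. Each is written 5′ to 3′ along its gene's strand, with the motif in capitals.

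Cish: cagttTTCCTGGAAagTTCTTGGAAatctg

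Bcl6, first start: agcaaattagTTCTCAGAAttccagaggcc

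Bcl6, second start: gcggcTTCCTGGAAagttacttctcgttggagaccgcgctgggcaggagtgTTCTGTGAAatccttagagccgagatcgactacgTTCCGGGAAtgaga

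Igfals, first start: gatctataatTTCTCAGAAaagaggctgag

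Igfals, second start: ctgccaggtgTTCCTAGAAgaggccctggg

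The Cish stretch lies at chr9:107296654-107296683 on the plus strand, in an exon of Cish, and holds a pair of motifs that begin 0 and 11 bases past the annotated start. Only 0.457% of all windows held 2 or more motifs. The first Bcl6 stretch, chr16:23988951-23988980 on the minus strand, lies upstream of the annotated transcripts, with its motif 118 bases before the start. The second, chr16:23981358-23981456, lies in an intron of Bcl6 and holds 3 motifs, 168, 122 and 88 bases before an internal start. Windows with 3 or more motifs made up 0.0335% of the table. The Igfals stretches, chr17:24877598-24877627 and chr17:24878163-24878192 on the plus strand, lie in introns of longer Igfals transcripts, 236 and 58 bases before their starts. A match describes these letters and does not show that STAT5 is bound there.

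Across the libraries, 12391 to 15903 loci reached 1 FPKM, and libraries of 1 group (Pearson r of 0.901 to 0.919) were hardly closer than libraries of different groups (0.896 to 0.914). The number of reads is unknown, so no counting error can be given. The tissue label was borne out by 8 of 8 hepatocyte markers, whose summed level was 20546 to 22631 FPKM in sulfasalazine and 20081 to 24644 in control mice. Control mouse 3 had the highest summed markers of macrophages, neutrophils, stellate cells, lymphocytes and cholangiocytes, and was highest in most acute phase genes. Its 9 Kupffer cell and macrophage markers summed to 252 FPKM, against 103 to 109 in sulfasalazine mice and 58.4 and 84.0 in the other control mice. Its 7 neutrophil markers summed to 15.5 FPKM, against at most 1.50 elsewhere. Of the acute phase genes, Saa1 was at 113 FPKM in control mouse 3, against at most 20.7 FPKM elsewhere. Saa2 was at 52.0 FPKM, against at most 3.39 FPKM elsewhere. Hp and Apcs were instead highest in control mouse 1. In whole liver, fewer cells of a type and less RNA per cell cannot be told apart.

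The 10 genes differed widely in abundance, and Igf1 led in both groups. In sulfasalazine mice the mean levels ran from Igf1 at 23.7 FPKM through Ghr at 8.83, Stat5b at 5.68, Bcl6 at 4.97, Jak2 at 3.16, Stat5a at 2.29, Igfals at 1.87 and Socs2 at 0.486 to Cish at 0.443 and Cux2 at 0.327. In control mice the order was Igf1 at 37.5 FPKM, Ghr at 9.46, Stat5b at 8.58, Bcl6 at 4.97, Socs2 at 2.84, Igfals at 2.56, Jak2 at 2.56, Stat5a at 2.52, Cish at 1.64 and Cux2 at 0.180. In sulfasalazine mice neighbours in this order had separate ranges between Igf1 and Ghr, between Ghr and Stat5b, and between Jak2 and Stat5a. In control mice they were separate between Igf1 and Ghr, between Stat5b and Bcl6, and between Cish and Cux2. All other neighbours overlapped. Socs2 thus had rank 8 of the 10 genes in sulfasalazine mice and rank 5 in control mice.

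**Figure D1:**
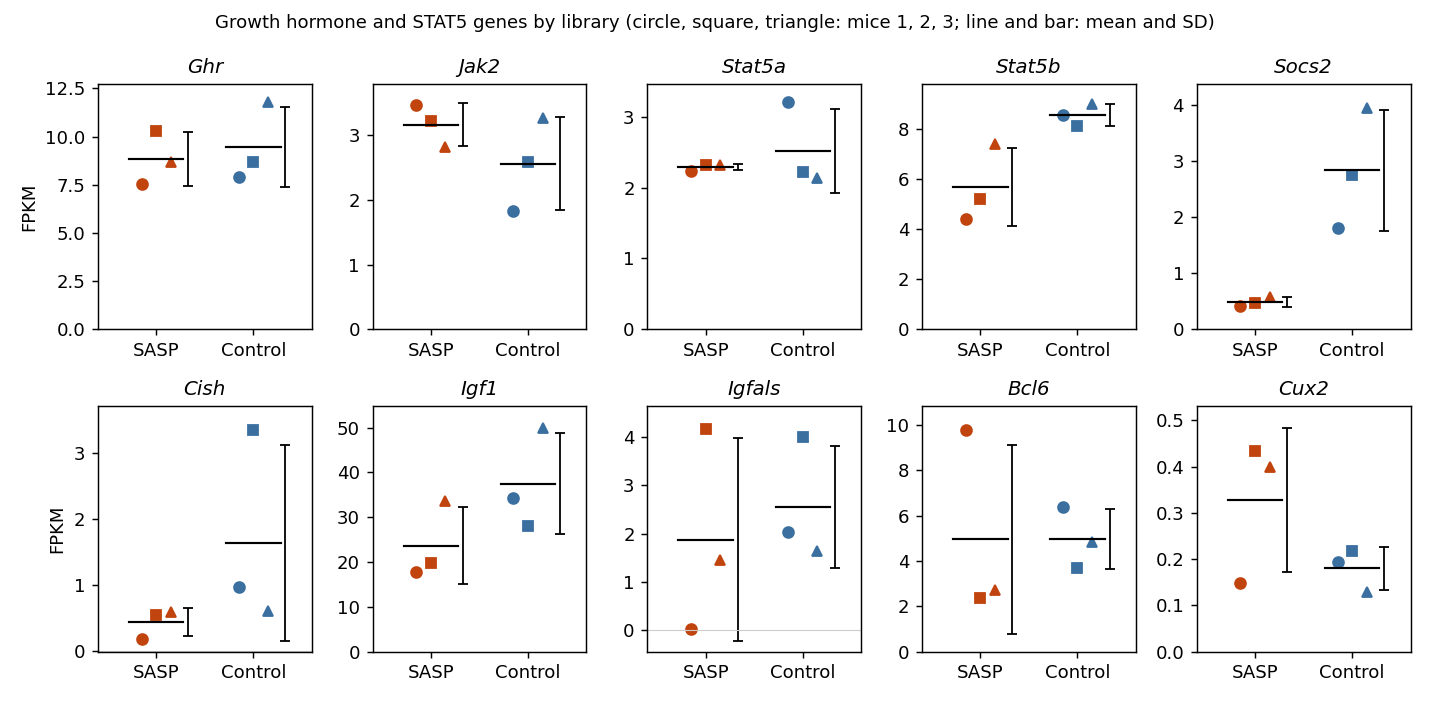
FPKM of each of the 10 genes in every library, with sulfasalazine (SASP, orange) left of control (blue), a line at the group mean and a bar for the SD (n = 3 each). Stat5b, Socs2 and Cish are the genes whose groups do not overlap, all with lower values in sulfasalazine mice, and the Igfals value of sulfasalazine mouse 1 lies at 0.0168 FPKM.

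Stat5b, Socs2 and Cish had lower values in each sulfasalazine mouse than in any control mouse, and the other 7 genes overlapped between groups. Among 16947 loci with an Ensembl transcript and a mean of at least 0.1 FPKM, 6.27% had all sulfasalazine values below all control values and 6.22% had them all above, as 0 of the 10 genes did. No gene of the 10 passed the test across the table. That test was limma on log2(FPKM + 1), adjusted by Benjamini and Hochberg with a threshold of 0.05, and it covered the 11969 loci that reached 1 FPKM in 3 or more libraries. It tested 8 of the 10 genes, Cish and Cux2 lying under the filter. With limma 0 of the 8 were called higher, where 0.0167% of all tested loci were, and 0 were called lower, where 0% were. At an unadjusted p under 0.05, 2 of the 8 were lower, Stat5b and Socs2, and 0 were higher, where 3.87% and 3.64% of all tested loci were. Socs2 passed the filter through its control values alone, so these counts are given only as a description. With 1 mouse left out and the tested loci kept, the count of lower genes was 1 to 3, and the share of all tested loci was not computed. Stat5b was no longer under the unadjusted threshold in 4 of these 6 fits, those without sulfasalazine mouse 1, sulfasalazine mouse 2, control mouse 1 or control mouse 3. Igf1 joined without sulfasalazine mouse 3, and Bcl6 without sulfasalazine mouse 1.

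The receptor, Ghr, differed by less than the spread between mice. Ghr, on chromosome 15 from 3317760 to 3583492 in GRCm38, had 7.52, 10.3 and 8.67 FPKM in sulfasalazine mice, against 7.90, 8.69 and 11.8 FPKM in control mice. The groups overlapped throughout, and the lowest value belonged to sulfasalazine mouse 1. For Ghr the log2 fold change was -0.08 (SE 0.19), with a 95% interval of -0.53 to 0.37 (limma, adjusted p = 0.94). A second assembled locus that the table names Ghr, with no annotated transcript, was of similar abundance, at 4.35, 12.6 and 7.81 FPKM in sulfasalazine mice and 8.58, 13.2 and 8.96 FPKM in control mice. It too was lowest in sulfasalazine mouse 1. With FPKM summed over the loci named Ghr, the log2 fold change was -0.27 (SE 0.25; limma, adjusted p = 0.887).

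Jak2, the receptor-bound tyrosine kinase, is on chromosome 19 from 29251828 to 29313080. It had 3.47, 3.21 and 2.81 FPKM in sulfasalazine mice, against 1.83, 2.58 and 3.26 FPKM in control mice. Control mouse 1 was lowest and the groups overlapped. Jak2 was the only tested gene of the 10 with a positive fold change, 0.24 with an SE of 0.17 on the log2 scale (limma, adjusted p = 0.816). It was 0.088 without control mouse 1 and 0.38 without control mouse 3.

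The 2 STAT5 genes, close paralogs, lie head to head on chromosome 11 with 8626 bases between them, Stat5b from 100780731 to 100850724 on the minus strand and Stat5a from 100859351 to 100885169 on the plus strand. Stat5b, the form on which pulsed growth hormone signalling in male liver mainly rests, had 4.41, 5.21 and 7.42 FPKM in sulfasalazine mice. In control mice Stat5b had 8.58, 8.14 and 9.02 FPKM. The groups did not overlap, sulfasalazine mouse 3 being closest to the control range. Stat5b had a log2 fold change of -0.54 (SE 0.18), with a mean level of 5.68 ± 1.56 FPKM in sulfasalazine and 8.58 ± 0.44 FPKM in control mice (SD, n = 3 each; limma, adjusted p = 0.579). Its 95% interval before adjustment was -0.98 to -0.10, and with 1 mouse left out the value lay between -0.72 and -0.40. Another 2 loci named Stat5b have no annotated transcript. One had a mean of 0.0925 FPKM in sulfasalazine and 0.763 FPKM in control mice. The other went the opposite way, at 1.63 and 1.09 FPKM. With FPKM summed over the loci named Stat5b, the log2 fold change was -0.45 (SE 0.16; limma, adjusted p = 0.678).

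Stat5a, which is better known for prolactin signalling in the mammary gland, had 2.24, 2.31 and 2.32 FPKM in sulfasalazine mice, against 3.21, 2.21 and 2.13 FPKM in control mice. The sulfasalazine values lay inside the control range, and control mouse 1 alone was high. The log2 fold change of Stat5a was -0.08 (SE 0.14; limma, adjusted p = 0.914). Within each library there was 1.97, 2.25 and 3.20 times as much Stat5b as Stat5a in sulfasalazine mice, against 2.68, 3.68 and 4.23 times in control mice, a ratio chosen after the values were seen. These ratios overlapped between groups. The annotation lets exons of Stat5a and Stat3 overlap at their 3′ ends on opposite strands, and whether reads were assigned by strand is not stated.

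Socs2 had the largest fold difference of the 10 genes. SOCS2 is a suppressor of cytokine signalling that docks on the activated growth hormone receptor, and mice without it grow too large. Socs2, on chromosome 10 from 95385362 to 95417180, had 0.408, 0.468 and 0.582 FPKM in sulfasalazine mice, against 1.81, 2.76 and 3.96 FPKM in control mice. Each sulfasalazine mouse lay below 1 FPKM and each control mouse above it, and the treated mice were close together. The mean in sulfasalazine mice was 0.171 times that in control mice. The log2 fold change on the log2(FPKM + 1) scale, which shrinks low values, was -1.33 (SE 0.23; limma, adjusted p = 0.231). Its unadjusted 95% interval was -1.89 to -0.78. Socs2 passed the filter through its control values alone, so its intervals and p-values are given only as a description. With no filter the log2 fold change was the same (limma, adjusted p = 0.723). With a pseudocount of 0.1 the log2 fold change was -2.27 and with 0.01 it was -2.47, and neither passed (limma, adjusted p = 0.277 and 0.322).

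The highest Socs2 value was that of control mouse 3, the mouse with the highest summed macrophage and neutrophil markers. Without it the log2 fold change of Socs2 was -1.13 (SE 0.21) (limma, adjusted p = 0.346). Over the 6 fits that each leave out 1 mouse and keep the tested loci, it lay between -1.54 and -1.13. With FPKM summed over the 3 loci named Socs2, 2 of which have no annotated transcript, it was -1.26 (limma, adjusted p = 0.526).

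Cish, the second feedback inhibitor and a close relative of Socs2, is on chromosome 9 from 107296026 to 107302784. It is the gene whose start carries the paired motif printed above. Cish had 0.193, 0.549 and 0.587 FPKM in sulfasalazine mice, against 0.966, 3.34 and 0.608 FPKM in control mice. The groups were separated by a narrow gap, since control mouse 3 lay just above sulfasalazine mouse 3 and control mouse 2 was far above all others. Cish reached 1 FPKM in 1 library and was not tested with the filter. With no filter the estimate for Cish on the log2 scale was -0.74 (SE 0.41), with an interval of -1.76 to 0.28 (limma, adjusted p = 0.723). Exons of 2 other annotated genes on the opposite strand, Gm17040 and Gm17041, overlap those of Cish.

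**Figure D2:**
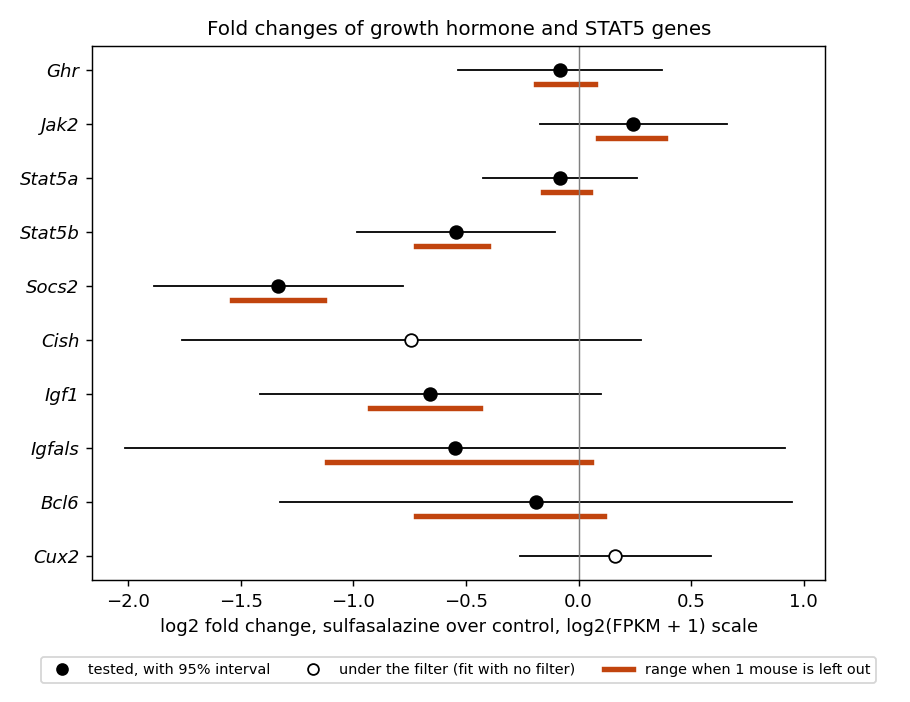
Log2 fold change of each gene, sulfasalazine over control, on the log2(FPKM + 1) scale, with the unadjusted 95% interval from limma; filled points were tested, open points come from the fit with no filter, and orange bars span the values when 1 mouse is left out. Socs2 at -1.33 and Stat5b at -0.54 are the genes whose intervals lie below 0, Socs2 having passed the filter through its control values alone, and Ghr at -0.08 and Stat5a at -0.08 lie near it.

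Igf1, the main endocrine output of hepatic STAT5, had 17.7, 19.8 and 33.5 FPKM in sulfasalazine mice. In control mice Igf1 had 34.4, 28.1 and 50.0 FPKM. Sulfasalazine mice 1 and 2 lay below all control mice, while sulfasalazine mouse 3 lay between control mice 1 and 2. The means were 23.7 ± 8.62 FPKM in sulfasalazine and 37.5 ± 11.2 FPKM in control mice (SD, n = 3 each). On the log2 scale the difference was -0.66 (SE 0.31), with an interval of -1.42 to 0.10 (limma, adjusted p = 0.726). Control mouse 3 was again the highest, and without it the value was -0.44, while without sulfasalazine mouse 3 it was -0.93. The part of the macrophage markers of that control mouse in the Igf1 level was not tested. Igf1 lies on chromosome 10 from 87858265 to 87937042.

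Igfals, which encodes the acid-labile subunit made by hepatocytes under growth hormone, varied more between mice than between groups. It is on chromosome 17 from 24865997 to 24882010. It had 0.0168, 4.16 and 1.44 FPKM in sulfasalazine mice, against 2.02, 4.01 and 1.65 FPKM in control mice. Sulfasalazine mouse 1 was near 0, and sulfasalazine mouse 2 had the highest value of all. Whether the value near 0 is a failed estimate was not tested. Igfals had a log2 fold change of -0.55 and an SE of 0.60 (limma, adjusted p = 0.879), and it was 0.05 without sulfasalazine mouse 1, -1.12 without sulfasalazine mouse 2 and -0.27 without control mouse 2. With a pseudocount of 0.01, which gives more weight to the value near 0, it was -2.13, still without a call.

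At its locus with an annotated transcript, Bcl6 was highest in sulfasalazine mouse 1, the mouse with the lowest Igfals. Bcl6, on chromosome 16 from 23965052 to 23988852, had 9.78, 2.38 and 2.74 FPKM in sulfasalazine mice, against 6.37, 3.70 and 4.83 FPKM in control mice. At this locus sulfasalazine mouse 1 was above, and mice 2 and 3 below, every control mouse. The group means were therefore alike, at 4.97 ± 4.17 FPKM in sulfasalazine and 4.97 ± 1.34 FPKM in control mice (SD, n = 3 each). Bcl6 had a log2 fold change of -0.19 and an SE of 0.47 (limma, adjusted p = 0.946), and it was -0.72 without sulfasalazine mouse 1, 0.11 without sulfasalazine mouse 2 and 0.04 without sulfasalazine mouse 3. Bcl6 is also made by B cells, whose marker Ms4a1 was at most at 0.0723 FPKM in any library. Exons of Gm37419 on the opposite strand overlap those of Bcl6. Another 2 loci named Bcl6 have no annotated transcript. The first had 0.213, 2.22 and 1.84 FPKM in sulfasalazine mice, against 1.76, 1.14 and 0.301 FPKM in control mice. The other had 0.586, 1.18 and 2.24 FPKM, against 2.70, 2.66 and 1.87 FPKM. Sulfasalazine mouse 1 was lowest at both, so the loci named Bcl6 did not set this mouse apart in the same direction. With FPKM summed over the loci named Bcl6, the log2 fold change was -0.13 (SE 0.26; limma, adjusted p = 0.943).

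Cux2, the female-type repressor, was scarce in all 6 livers. Cux2, on chromosome 5 from 121856366 to 122050102, had 0.148, 0.435 and 0.398 FPKM in sulfasalazine mice, against 0.194, 0.217 and 0.129 FPKM in control mice. Sulfasalazine mice 2 and 3 lay above all control mice and sulfasalazine mouse 1 lay within their range. With no filter the log2 fold change was 0.16 (SE 0.17) (limma, adjusted p = 0.762). In sulfasalazine mice 2 and 3, then, Cux2 was above the control range, at levels under 1 FPKM in every library. At the Bcl6 locus with an annotated transcript, these mice lay below the control range and sulfasalazine mouse 1 above it. The other 2 loci named Bcl6 did not repeat this order, with sulfasalazine mouse 1 lowest at both.

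The rest of the pathway was described by lists. Of 22 other components of growth hormone and related receptor signalling, 19 were tested. With limma 0 of the 19 passed in either direction, 9 had positive and 10 had negative fold changes, and the median was -0.02 on the log2 scale, where the median of all tested loci was -0.00206. At an unadjusted p under 0.05, 1 was higher and 2 were lower, where 3.64% and 3.87% of all tested loci were. Of the genes so counted, Irs2 alone stayed under that threshold whichever of the 6 mice was left out. Irs2, an insulin receptor substrate that JAK2 can also phosphorylate, had 4.74, 3.24 and 3.49 FPKM in sulfasalazine mice, against 34.8, 14.6 and 10.7 FPKM in control mice. The Irs2 groups stood well apart, with a log2 fold change of -1.97 and an SE of 0.42 (limma, adjusted p = 0.33). Ptpn11, the phosphatase SHP2, had 5.41, 7.17 and 8.70 FPKM in sulfasalazine mice, against 9.89, 10.5 and 9.93 FPKM in control mice (limma, adjusted p = 0.617). Its groups did not overlap, and its mice ranked as for Stat5b among the treated, with mouse 1 lowest and mouse 3 highest.

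Grb2, an adaptor, had 3.32, 3.54 and 3.43 FPKM in sulfasalazine mice, against 2.90, 2.89 and 2.48 FPKM in control mice (limma, adjusted p = 0.648). Il6st, the shared receptor chain gp130 and the most abundant of these genes, had 23.5 ± 2.53 FPKM in sulfasalazine and 23.6 ± 4.96 FPKM in control mice (SD, n = 3 each), a difference within the spread between mice.

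Of 13 other genes of the IGF axis, 7 were tested. With limma 0 of the 7 passed in either direction, also at an unadjusted p under 0.05; 2 had positive and 5 negative fold changes, with a median of -0.16. Igfbp4, a serum binding protein and the most abundant of them, had 239, 278 and 206 FPKM in sulfasalazine mice, against 337, 299 and 296 FPKM in control mice, without overlap (limma, adjusted p = 0.691). Igfbp1, known to respond to insulin and fasting, ranged widely in both groups, with 50.0, 4.65 and 12.7 FPKM in sulfasalazine mice and 162, 6.19 and 90.7 FPKM in control mice. Igfbp2 had 70.8 ± 21.7 FPKM in sulfasalazine and 83.7 ± 25.7 FPKM in control mice (SD, n = 3 each). Igf2r, the receptor that clears IGF-2, had 11.6, 12.3 and 11.3 FPKM in sulfasalazine mice, against 9.70, 10.8 and 9.44 FPKM in control mice (limma, adjusted p = 0.729).

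**Figure D3:**
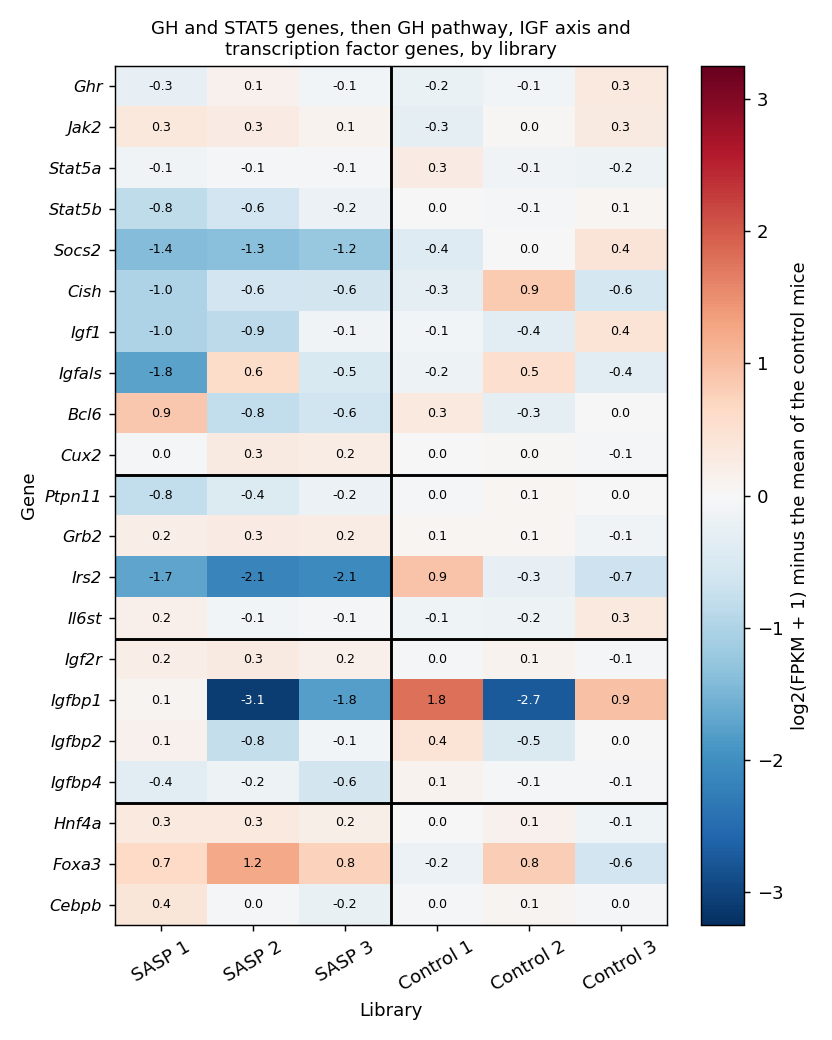
Values of log2(FPKM + 1) minus the mean of the control mice in every library, for the 10 genes and, under the lines, for named genes of the growth hormone pathway, the IGF axis and the liver transcription factors. Socs2 lies between -1.41 and -1.24 and Irs2 between -2.14 and -1.70 in the 3 sulfasalazine mice, while Igfals and Bcl6 differ in sign among those mice.

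Of 14 liver transcription factors that act beside STAT5, 13 were tested and 0 passed with limma in either direction. Their median log2 fold change was -0.08, with 6 positive and 7 negative. At an unadjusted p under 0.05, 1 was higher and 0 were lower, where 3.64% and 3.87% of all tested loci were. The 1 higher gene was Cebpa. It is listed at 0 in control mice 1 and 2 and at 69.6 FPKM in control mouse 3, against 62.4, 91.6 and 82.2 FPKM in sulfasalazine mice. An exact 0 for a main hepatocyte factor can be a failed estimate, so no mean or fold is given. Hnf4a, a core hepatocyte factor, had 93.9, 93.6 and 86.6 FPKM in sulfasalazine mice, against 75.3, 83.7 and 68.3 FPKM in control mice, without overlap (limma, adjusted p = 0.73). Foxa3 had 3.96 ± 1.13 FPKM in sulfasalazine and 1.89 ± 1.52 FPKM in control mice, and Cebpb had 61.7 ± 14.5 FPKM in sulfasalazine and 59.1 ± 3.41 FPKM in control mice (SD, n = 3 each). The groups overlapped for both.

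Genes known to differ by sex in mouse liver are read out from the growth hormone pattern through STAT5B, and they overlap with a list tested before on these data. Of 18 tested male-biased loci, 0 passed with limma, and the median log2 fold change was -0.45. At an unadjusted p under 0.05, 7 were lower and 0 higher, where 3.87% and 3.64% of all tested loci were. Susd4, 1 of the 7, passed the filter through its control values alone. Without sulfasalazine mouse 2 the count of lower loci was 3 and the median -0.15, and without sulfasalazine mouse 1 the median was -0.72. Leaving out control mouse 2 also gave 3 lower loci, and leaving out sulfasalazine mouse 3 gave 4, as did leaving out control mouse 1. For these fits the share of all tested loci was not computed. Elovl3, a fatty acid elongase, had 3.97, 5.71 and 1.72 FPKM in sulfasalazine mice, against 8.57, 10.2 and 9.55 FPKM in control mice, without overlap (limma, adjusted p = 0.467). Nudt7, a peroxisomal coenzyme A hydrolase, had 2.74, 4.40 and 5.30 FPKM in sulfasalazine mice, against 7.38, 12.7 and 7.01 FPKM in control mice (limma, adjusted p = 0.515). The abundant urinary protein gene Mup1 had 1190 ± 668 FPKM in sulfasalazine and 1856 ± 758 FPKM in control mice (SD, n = 3 each), which overlapped. The locus named Mup3, which also holds Mup20, had 1103 ± 351 FPKM in sulfasalazine and 1317 ± 288 FPKM in control mice (SD, n = 3 each), with overlap. The Mup and Cyp2 genes named here have near-identical copies among which the assembly can split reads, so their own levels are uncertain.

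The female-biased list held 20 genes at 19 loci, of which only 9 reached the filter. Of these 9 tested female-biased loci, 0 passed with limma, 0 had an unadjusted p under 0.05 in either direction, and the median was 1.49. At that p, 3 were higher without sulfasalazine mouse 1, and 2 without control mouse 1 or 3. The share of all tested loci at that p was not computed for fits without 1 mouse, so these counts are only a description. Sulfasalazine mouse 2 had the highest value at 7 of the 9, and without it the median was 0.14. Cyp2b9 had 5.89, 60.5 and 28.5 FPKM in sulfasalazine mice, against 2.52, 1.86 and 12.9 FPKM in control mice. Its groups overlapped (log2 fold change 2.16, SE 0.95; limma, adjusted p = 0.697). The locus named Cyp2c69, which also holds Cyp2c40, had 19.9 ± 15.8 FPKM in sulfasalazine and 13.7 ± 11.1 FPKM in control mice (SD, n = 3 each). Under the filter lay Sult3a1, a sulfotransferase named after its values were seen, at 0.194, 29.1 and 0.539 FPKM in sulfasalazine mice, against 0.0455, 0 and 0.154 FPKM in control mice. Acot3, an acyl-CoA thioesterase, had 4.38, 40.1 and 7.47 FPKM in sulfasalazine mice, against 10.2, 0.894 and 0.656 FPKM in control mice. Cyp2a4 had 13.1, 19.8 and 21.7 FPKM in sulfasalazine mice, against 1.48, 8.19 and 12.1 FPKM in control mice, without overlap (limma, adjusted p = 0.676). Sulfasalazine mouse 2 also had the highest Cux2, at 0.435 FPKM, and the lowest Bcl6 at the locus with an annotated transcript, at 2.38 FPKM. At another locus named Bcl6 it was the highest, at 2.22 FPKM. Sulfasalazine mouse 3 had similar levels of Cux2 and Bcl6, 0.398 and 2.74 FPKM, with Sult3a1 at 0.539 FPKM. A link between these genes was not tested.

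**Figure D4:**
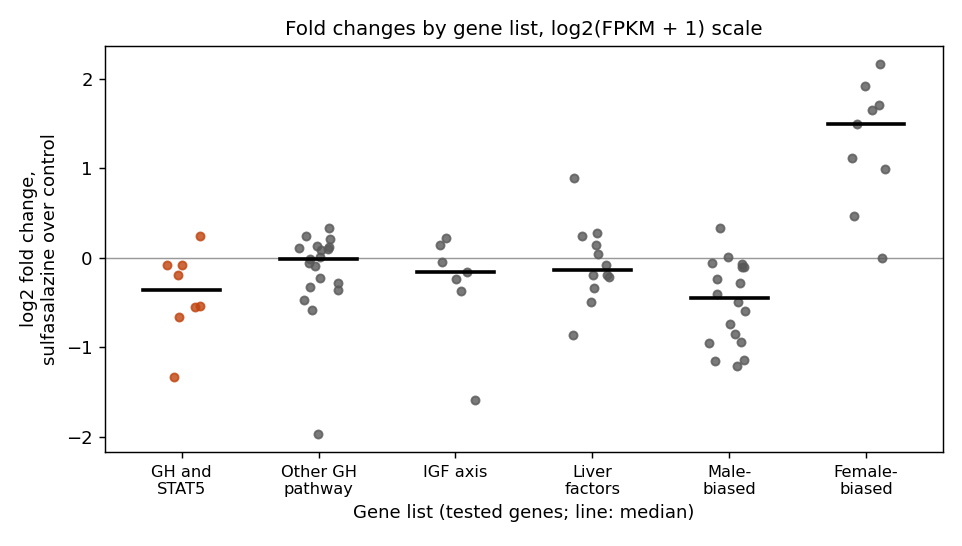
Log2 fold changes, sulfasalazine over control, of the tested genes of each list, with a line at the list's median; Cebpa, listed at 0 in 2 control mice, is left out of the liver factors, whose median is then -0.13. The 8 tested growth hormone and STAT5 genes have a median of -0.37, male-biased loci -0.45 and female-biased loci 1.49 (-0.15 and 0.14 without sulfasalazine mouse 2), with no gene of any list past the adjusted threshold.

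Loci whose levels followed 3 of the genes across the 6 libraries were ranked by Pearson's r on log2(FPKM + 1), as a description over libraries that share the 2 groups. For Igf1 the closest of 9927 loci were Dcp2, an mRNA-decapping enzyme (r = 0.978), Adam10, a membrane protease (r = 0.977) and Gapdh (r = 0.971). Gapdh, a glycolytic enzyme often taken as a reference, had 92.8, 98.4 and 109 FPKM in sulfasalazine mice, against 115, 104 and 134 FPKM in control mice. For Bcl6 they were the kinase gene Akt1 (r = 0.994), Dkc1 (r = 0.986) and Gm43759 (r = 0.981). For Cux2, compared with 9928 loci, they were Haus7 (r = 0.984), Fasn (r = 0.984) and Tenm3 (r = 0.982). Fasn, the fatty acid synthase, had 15.1, 31.4 and 31.6 FPKM in sulfasalazine mice, against 16.1, 20.5 and 14.7 FPKM in control mice. Its high values in sulfasalazine mice 2 and 3, as for Cux2, follow from its being picked by correlation with Cux2.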

How the data were processed

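Whole-liver total RNA was depleted of ribosomal RNA before library preparation, per the labels' protocols. The authors deposited FPKM per assembled locus and library, per the file headers. The genome build GRCm38.p5 and the tools StringTie, Bowtie2, cutadapt and FastQC are listed, without versions, per the submitters' processing notes. Depth is unknown. Ensembl transcripts of the loci were looked up in GENCODE M21, also on GRCm38. After adding 1 FPKM and taking log2, all loci with at least 1 FPKM in 3 libraries were fitted together in limma 3.58.1 (R 4.3.3), using a variance trend and a Benjamini-Hochberg threshold of 0.05. The procedure was checked on simulated data. Each library is a separate sample per the labels, and p-values measure only the spread between these samples. The 10 genes and the lists were chosen with earlier results of these data known. Genes named from a list were those past the threshold, the 3 with the smallest p and the 2 most abundant, and a locus counted once per list. Alternatives are given in the closing section. Promoter sequences are RefSeq's, on GRCm38.p6. Python 3.11.15 with matplotlib 3.10.9 drew the figures.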

Additional observations from a re-analysis of the deposited data

How the results depend on the processing

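None of the 10 genes was called higher or lower by limma in any alternative run that tested it. Cish and Cux2 were tested only with no filter and with the 0.1 FPKM minimum. Jak2, Stat5a, Socs2, Igfals and Bcl6 were not tested with the 5 FPKM minimum. Socs2 was also not tested where a control mouse was left out and the filter was applied anew. Over the whole table, the 2 loci called higher were 1 for a pseudocount of 0.1, 1 for 0.01, 0 unfiltered, 1 for a 0.1 FPKM and 6 for a 5 FPKM minimum, 23 without the variance trend, 9 among Ensembl loci and 7 with FPKM summed per symbol. Leaving out 1 mouse gave 1 to 9. The 0 loci called lower were 1 for the 5 FPKM minimum, 22 without the trend and 3 among Ensembl loci, and 0 to 6 when 1 mouse was left out. The replicate number as a block gave 0 higher and 0 lower; deviations of mice sharing a number correlated at 0.00967, -0.0668 and -0.0222, so no pairing was seen. Log2 fold changes that were not called changed sign with 1 mouse left out for Ghr (-0.19 to 0.073), Stat5a (-0.16 to 0.053), Igfals (-1.12 to 0.053), Bcl6 (-0.72 to 0.11), Il6st (-0.078 to 0.17), Igfbp2 (-0.47 to 0.025), Cebpb (-0.14 to 0.18) and the Cyp2c69 locus (-0.12 to 1.07); quantile normalization turned Il6st (-0.035) and Cebpb (-0.048). Cebpa was called higher without control mouse 3, which left 2 control libraries at 0. The cause of the other shifts was not tested. How far low depth limits scarce genes such as Cux2 cannot be stated from FPKM.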
